A study of Mus musculus with 8 samples.

Results

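The insulin-like growth factor (IGF) family was followed in hearts of adult mice that had lost Mettl3 from their cardiomyocytes. The family was taken as 9 genes, chosen by symbol out of the 23045 genes listed in the deposited table. They are the ligands Igf1 and Igf2, the receptors Igf1r and Igf2r, and the binding proteins Igfbp3, Igfbp4, Igfbp5, Igfbp6 and Igfbp7. The comparison asks which IGF family transcripts change in heart tissue when the enzyme that writes N6-methyladenosine (m6A) on RNA is removed from muscle cells. Total RNA had been prepared from hearts of 4 Mettl3 KO mice (labelled Mut) and 4 control mice (labelled WT), with 1 RNA-seq library per heart. Mettl3 KO mice were Mettl3 lox/lox and carried αMHC-MerCreMer, a tamoxifen-dependent Cre recombinase that is made in cardiomyocytes only, so that all other cells of the heart keep Mettl3. WT mice were Mettl3 lox/lox without the Cre transgene. Per the study's methods, mice of both genotypes were aged 10 to 16 weeks when tamoxifen was injected intraperitoneally on 7 consecutive days at 100 µg per 1 g body weight. The controls thus share the floxed allele and tamoxifen with the Mettl3 KO mice but not the transgene, so that loss of Mettl3 and presence of active Cre cannot be told apart.

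IGF1 and IGF2 are small secreted hormones. Both signal through the receptor tyrosine kinase IGF1R, which activates the PI3K-AKT-mTOR and RAS-MAPK pathways and promotes growth and survival of cells, cardiomyocytes included. IGF2R, the cation-independent mannose 6-phosphate receptor, carries no kinase, removes IGF2 from the cell surface and sorts lysosomal enzymes. Most IGFs outside cells are held by IGF binding proteins, which lengthen the life of the ligand, limit its access to the receptor or concentrate it in the extracellular matrix, and which proteases such as PAPP-A cut to set the ligand free.

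Values are normalized read counts, whole numbers that the authors obtained by scaling the reads of each library with DESeq2. Their totals lay between 2839589 and 2881849 in WT libraries and between 2840184 and 2916986 in Mettl3 KO libraries. The underlying numbers of reads, worked out from gaps among the low values, lay between 2730757 and 3062443 for WT and between 2631281 and 3053305 for Mettl3 KO libraries. The limit of 3 reads that a count of 0 allows corresponded to 2.78 to 3.33 normalized read counts, counting error only. Cardiomyocyte markers such as Myh6, Tnnt2 and Pln were abundant in every library. The targeted gene Mettl3 had 105, 133, 118 and 107 normalized read counts in the WT libraries and 74, 68, 69 and 78 in the Mettl3 KO libraries, or -0.67 ± 0.10 (SE) on the log2 scale (limma adjusted p = 0.00018). Esr1, part of whose sequence is held by the MerCreMer transgene, had 13 to 20 normalized read counts in WT libraries and 693 to 851 in Mettl3 KO libraries.

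Of the 9 IGF family transcripts, 5 rose in Mettl3 KO hearts and none fell. They were the ligand Igf1, whose mean was 22.6% higher, and the binding proteins Igfbp3 (48.0% higher), Igfbp4 (22.8% higher), Igfbp5 (26.5% higher) and Igfbp6 (131% higher). Igf2, Igf1r, Igf2r and Igfbp7 did not pass the test. A gene was called when its adjusted p in a limma fit over all 20313 genes with a mean of at least 1 normalized read count lay under 0.05. All 9 members passed that filter. Among all genes tested 7.91% were called, 4.72% as higher and 3.19% as lower in Mettl3 KO hearts, against 55.6% of the IGF family. In 4 of the 9 members no Mettl3 KO library overlapped the WT libraries, which was so for 11.5% of all genes tested. The median log2 fold change of the members was 0.29, that of all genes tested was -0.01, and all 9 members had a value above 0 against 48.2% of all genes. The members were chosen with earlier results of these data known, so that these shares are descriptions and no test of the family. In whole tissue, a change in the number of cells that make a transcript and a change in its amount per cell cannot be told apart. All 5 calls were lost in a limma fit without the mean-variance trend, in which 4 members had an unadjusted p under 0.05, and 3 remained when WT replicate 2 was left out. Nothing in the sources says how the animals were related, so that each p-value rests on these 8 hearts taken as independent. It sets the genotype difference against the spread within the groups, drawn toward a trend over all genes tested.

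**Figure D1:**
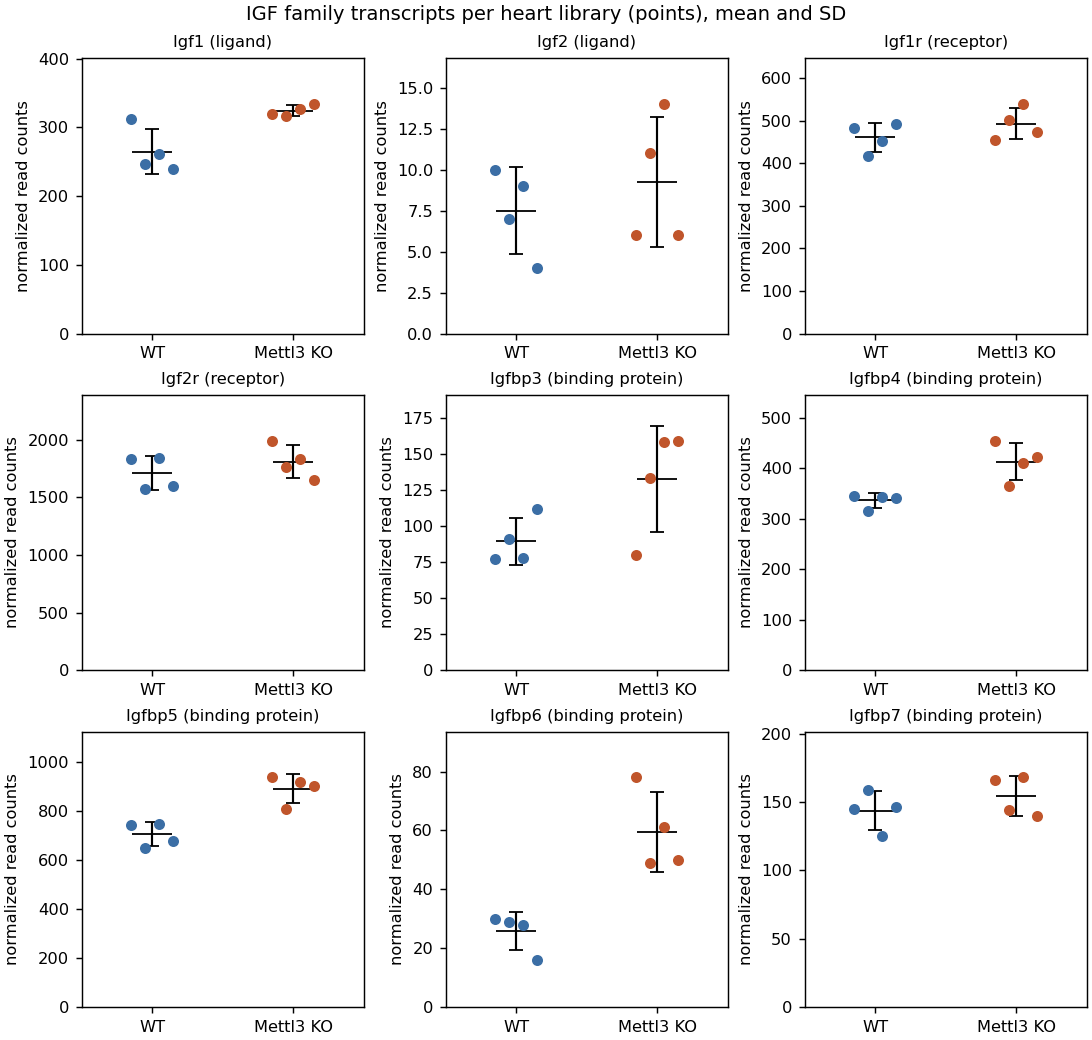
Normalized read counts (vertical axes, starting at 0) of the 9 IGF family transcripts in 4 WT and 4 Mettl3 KO hearts, with 1 point per library and a bar for the mean ± SD. The groups are apart for Igf1, Igfbp4, Igfbp5 and Igfbp6, the first Mettl3 KO library lies among the WT libraries for Igfbp3 (80), and the points mingle for Igf2, Igf1r, Igf2r and Igfbp7.

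Because METTL3 methylates adenosines within a short RNA motif whose most common form reads GGACU, the mRNA sequences of the members were searched for GGACT on the sense strand. The longest protein-coding transcript of each gene in GENCODE M21 was used. Such a match is a place where the letters occur, and whether it carries m6A in these hearts was not measured. For the 5 members that rose, the match nearest to the stop codon is shown with 10 bases before and 10 after it, from 5′ to 3′, with the motif in capitals.
Igf1: gacaagctaaGGACTcagtctcccc
Igfbp3: gagcagcatcGGACTccacgttcag
Igfbp4: agcaggtgggGGACTcagtgccccc
Igfbp5: acgtggatggGGACTttcagtgcca
Igfbp6: gtgcgccccaGGACTgcagtgccaa
The Igfbp4 match begins 21 bases after the first base of the stop codon, in the 3′ UTR, and the Igfbp5 match begins 40 bases before it, in the last part of the coding sequence. The match in Igfbp6 lies 471 bases before the stop codon and is coding, whereas those in Igfbp3 and Igf1 lie 749 and 1589 bases after it in the 3′ UTR. Igfbp4 and Igfbp5 each had 2 matches within 400 bases of the stop codon, and none of the other 7 members had any.

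The density of the motif differed widely among the members. Igfbp6 had 3 matches in 1112 bases, or 2.7 per kb, which put it at percentile 96.6 of 14310 protein-coding genes with a transcript. Igf1 stood at the other end with 2 matches in 7052 bases, or 0.284 per kb, at percentile 8.98. The median gene had 1.05 per kb, with quartiles at 0.65 and 1.52, and 92.8% of genes held at least 1 match. Igfbp4 (1.57 per kb), Igf2r (1.35), Igf1r (1.23) and Igfbp5 (1.17) lay above that median. Igfbp7 (0.833 per kb), Igf2 (0.424) and Igfbp3 (0.413) lay below it. Members that rose were thus found at both ends of the range, and both receptors, which did not pass the test, were above the median.

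The promoters of the members were compared for shared motifs. RefSeq entries (GRCm38.p6) of 300 bases, from 250 before to 50 after the start of transcription, were found for all 9 members. Printed from 5′ to 3′ on the strand of the gene are those of Igfbp4 (chr11:99040994-99041293, plus strand), Igfbp5 (chr1:72874816-72875115, minus strand) and Igfbp6 (chr15:102143936-102144235, plus strand), the binding proteins whose calls were the steadiest. Capitals mark the motif matches found on either strand.
Igfbp4 promoter: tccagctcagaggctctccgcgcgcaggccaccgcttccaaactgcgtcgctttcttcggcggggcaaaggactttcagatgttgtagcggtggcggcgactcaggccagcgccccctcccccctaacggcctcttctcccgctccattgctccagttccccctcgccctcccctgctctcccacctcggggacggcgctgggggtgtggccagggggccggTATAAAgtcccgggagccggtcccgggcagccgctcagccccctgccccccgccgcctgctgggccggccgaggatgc
Igfbp5 promoter: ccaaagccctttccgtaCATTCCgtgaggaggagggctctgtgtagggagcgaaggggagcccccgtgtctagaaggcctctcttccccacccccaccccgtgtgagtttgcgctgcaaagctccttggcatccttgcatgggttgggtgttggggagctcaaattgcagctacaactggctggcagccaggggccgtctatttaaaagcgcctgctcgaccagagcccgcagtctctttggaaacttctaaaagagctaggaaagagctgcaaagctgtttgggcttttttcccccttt
Igfbp6 promoter: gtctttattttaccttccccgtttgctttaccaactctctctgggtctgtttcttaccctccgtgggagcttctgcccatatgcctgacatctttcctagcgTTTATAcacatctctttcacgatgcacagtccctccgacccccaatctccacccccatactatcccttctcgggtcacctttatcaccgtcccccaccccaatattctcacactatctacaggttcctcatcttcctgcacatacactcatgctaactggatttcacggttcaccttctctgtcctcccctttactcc
The motif of TATA-binding protein was searched as TATAAA, which 13.6% of 32851 promoters of this length held on either strand. The GC box was searched as GGGCGG (35.7% of these promoters), and the AP-1 motif as TGANTCA (7.81%). The TEAD motif was searched as GGAATG (14.7%), and the E-box as CACGTG (7.15%). Igfbp4 held the TATA-binding letters at position -28 from the start. Igfbp5 held the TEAD letters on the opposite strand at -233, and Igfbp6 held the TATA-binding letters on the opposite strand at -148. Of the other members that rose, Igf1 (chr10:87860861-87861160) held the AP-1 letters at -37 and Igfbp3 (chr11:7213874-7214173) held none of the 5 motifs. GC boxes were found in the promoters of Igf1r, Igf2r and Igfbp7, with 2, 3 and 4 matches, and in some entries of Igf2, but in none of the promoters of the 5 members that rose. The promoters of Igfbp3 (71.7%) and Igfbp4 (71.3%) were rich in G and C against a median of 52.7% over all promoters. Those of Igf1 (52.3%), Igfbp5 (56.3%) and Igfbp6 (49.7%) lay nearer to that median. Among members that did not pass the test, Igf1r (76.0%), Igfbp7 (73.3%) and Igf2r (70.7%) were similarly rich. The entries of Igf2 held 49.7% to 64.7%. No match says more than that the letters occur in this window.

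Igf1, the main growth-promoting ligand of the family (ENSMUSG00000020053, mm39 chromosome 10, 87694127 to 87772904, plus strand), had 312, 246, 261 and 240 normalized read counts in the WT libraries and 320, 317, 327 and 334 in the Mettl3 KO libraries. The 4 Mettl3 KO libraries lay close together and above every WT library, although the first WT library came within 5 of the lowest of them. The mean rose from 265 ± 32.7 to 325 ± 7.59 (SD, n = 4 each). The log2 fold change was 0.30 (SE 0.07, 95% confidence interval 0.15 to 0.45, limma adjusted p = 0.0109), at percentile 85.1 of all genes tested. The call rested on several libraries, since the limma adjusted p was 0.0516 without WT replicate 2 and 0.0534 without WT replicate 4, with log2 fold changes of 0.27 and 0.26. The antisense lncRNA Igf1os overlaps Igf1, but had a mean of 0.75 normalized read counts in WT hearts and 0 in Mettl3 KO hearts.

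Igf2, the ligand best known from fetal growth (ENSMUSG00000048583, mm39 chromosome 7, 142204503 to 142220553, minus strand), had few counts in these hearts. The WT libraries held 10, 7, 9 and 4 normalized read counts and the Mettl3 KO libraries 6, 11, 14 and 6, so that the groups overlapped. The log2 fold change of 0.25 had a 95% confidence interval from -0.48 to 0.98 (limma adjusted p = 0.769). Its spread between WT hearts, a coefficient of variation of 35.3%, was close to the 36.5% that counting alone gives at this level, so that changes smaller than the interval were not detectable at this depth. Reads shared with Gm49394, a gene on the same strand that covers Igf2, had been left out by the authors, which lowers the value of Igf2 by an unknown amount. H19, the imprinted lncRNA next to Igf2, had 147 ± 28.2 and 161 ± 5.85 normalized read counts and was not called (log2 fold change 0.15, limma adjusted p = 0.457).

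Neither receptor passed the test. Igf1r, the signalling receptor (ENSMUSG00000005533, mm39 chromosome 7, 67602575 to 67883416, plus strand), had 484, 418, 452 and 493 normalized read counts in WT libraries, against 456, 502, 540 and 475 in those of Mettl3 KO hearts. The groups overlapped, although the lowest values were WT and the highest Mettl3 KO. The log2 fold change was 0.10 (95% confidence interval -0.03 to 0.22, limma adjusted p = 0.429), so that a rise of up to 0.22 lies within the interval. Igf2r (ENSMUSG00000023830, mm39 chromosome 17, 12901293 to 12988551, minus strand) held 1838, 1575, 1840 and 1597 in WT libraries, against 1993, 1765, 1831 and 1648 in those of Mettl3 KO hearts, again overlapping. Its log2 fold change was 0.08 (95% confidence interval -0.03 to 0.19, limma adjusted p = 0.469). Airn, the lncRNA that runs antisense across the start of Igf2r and silences it on one parental chromosome, had 471 ± 34.4 normalized read counts in WT and 423 ± 27.6 in Mettl3 KO hearts and was not called either (log2 fold change -0.16, limma adjusted p = 0.129).

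Igfbp6 showed the largest increase of the family. IGFBP6 is a binding protein that prefers IGF2 over IGF1 (ENSMUSG00000023046, mm39 chromosome 15, 102052797 to 102057946, plus strand). The WT libraries held 30, 29, 28 and 16 normalized read counts and the Mettl3 KO libraries 78, 49, 61 and 50. Every Mettl3 KO library was above every WT library, and the first Mettl3 KO library was the highest. The mean rose from 25.8 ± 6.55 to 59.5 ± 13.5 (SD, n = 4 each), a ratio of 2.31. The log2 fold change was 1.19 (SE 0.20, 95% confidence interval 0.79 to 1.60, limma adjusted p = 0.000368), at percentile 99.2 of all genes tested. Igfbp6 is also the member with the densest GGACT motif, although no match lay within 400 bases of its stop codon. Whether the motif has a part in the rise was not tested.

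Igfbp5, the binding protein transcript with the highest counts in the heart and a protein that binds extracellular matrix (ENSMUSG00000026185, mm39 chromosome 1, 72897091 to 72914043, minus strand), was found at 744, 650, 749 and 679 normalized read counts in WT libraries, against 938, 808, 920 and 904 in those of Mettl3 KO hearts. The lowest Mettl3 KO library lay well above the highest WT library. The mean rose from 706 ± 48.8 to 893 ± 58.0 (SD, n = 4 each), with a log2 fold change of 0.34 (SE 0.05, 95% confidence interval 0.23 to 0.45, limma adjusted p = 0.000297). Igfbp4 (ENSMUSG00000017493, mm39 chromosome 11, 98932070 to 98945218, plus strand) encodes the binding protein that PAPP-A cuts to set IGFs free. It had 346, 315, 344 and 341 normalized read counts in WT libraries, against 455, 366, 410 and 422 in those of Mettl3 KO hearts, again without overlap. Its mean rose from 337 ± 14.5 to 413 ± 36.8 (SD, n = 4 each), with a log2 fold change of 0.29 (SE 0.06, 95% confidence interval 0.16 to 0.42, limma adjusted p = 0.00501). In both genes the second replicate was the lowest library of its group.

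Igfbp3, which encodes the main carrier of IGFs in blood (ENSMUSG00000020427, mm39 chromosome 11, 7156086 to 7163923, minus strand), rose less evenly. The WT libraries held 77, 91, 78 and 112 normalized read counts and the Mettl3 KO libraries 80, 133, 158 and 159. Of the Mettl3 KO libraries 3 lay above all WT libraries, whereas the first lay at the WT level. The mean was 89.5 ± 16.3 in WT and 133 ± 37.0 in Mettl3 KO hearts (SD, n = 4 each), and the log2 fold change was 0.53 (SE 0.16, 95% confidence interval 0.19 to 0.86, limma adjusted p = 0.0480). This call was lost in 13 of 19 other ways of fitting the data, among them the omission of WT replicate 1, 2 or 3 or of Mettl3 KO replicate 2, 3 or 4 (limma adjusted p = 0.102 to 0.215). The log2 fold change was 0.75 when Mettl3 KO replicate 1 was left out (limma adjusted p = 0.00027) and 0.42 when Mettl3 KO replicate 4 was left out (limma adjusted p = 0.204). The same Mettl3 KO library stood apart in atrial transcripts. Bmp10, a marker of the right atrium, had 0 normalized read counts in all 4 WT libraries and in the first Mettl3 KO library, but 195, 158 and 358 in the other Mettl3 KO libraries. The part of atrial tissue in the Igfbp3 values was not tested.

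Igfbp7, which encodes a secreted protein of the vessel wall with low affinity for IGFs (ENSMUSG00000036256, mm39 chromosome 5, 77497087 to 77555888, minus strand), did not pass the test. The WT libraries held 145, 159, 125 and 146 normalized read counts and the Mettl3 KO libraries 166, 144, 168 and 140. The groups overlapped, and the log2 fold change was 0.10 (95% confidence interval -0.08 to 0.29, limma adjusted p = 0.584). Summed over the 5 binding proteins, the WT libraries held 1342, 1244, 1324 and 1294 normalized read counts and the Mettl3 KO libraries 1717, 1500, 1717 and 1675. The sums did not overlap, with means of 1301 ± 42.9 and 1652 ± 103 (SD, n = 4 each). Igfbp5 made up 54.2% of this sum in WT and 54.0% in Mettl3 KO hearts, so that its share of binding protein reads hardly moved.

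To compare levels between genes, normalized read counts were divided by the exon length in kb. In WT hearts Igf2r had the highest level per kb with 184 ± 15.7. Igfbp7 (119 ± 11.6) and Igfbp5 (118 ± 8.13) followed and overlapped each other, then came Igfbp4 (76.2 ± 3.28), all SD with n = 4. Igfbp3 (28.6 ± 5.21), Igf1r (27.5 ± 2.03), Igf1 (26.7 ± 3.30) and Igfbp6 (23.2 ± 5.89) formed a lower tier in which each neighbour overlapped the next. Igf2 stood last with 1.31 ± 0.46, a value lowered by an unknown amount because reads shared with Gm49394 were left out. In Mettl3 KO hearts the mean of Igfbp6, 53.5 ± 12.1 per kb, was above that of Igfbp3 (42.3 ± 11.8), and the mean of Igfbp5 (149 ± 9.66) was above that of Igfbp7 (128 ± 12.0). The ranges of the Mettl3 KO libraries overlapped in both pairs. Within a library, Igfbp5 was above Igfbp7 in 4 of 4 Mettl3 KO hearts and Igfbp6 above Igfbp3 in 3 of 4. The insulin receptor gene Insr, which can form hybrid receptors with IGF1R, had 112 per kb in WT hearts, above the level of Igf1r. Its log2 fold change was 0.05 (95% confidence interval -0.03 to 0.14, limma adjusted p = 0.526).

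The wider pathway was examined in 6 lists of genes chosen by function, with earlier results of these data known. Of 73 genes 66 could be tested, and 10 of these were called, 7 higher and 3 lower. That is 15.2%, beside the 7.91% of all genes given above, with a median log2 fold change of -0.01. Called genes of these lists thus lay in both directions.

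Among the other members of the IGF system, 1 of 9 genes tested was called (11.1%, beside 7.91% of all genes tested). Igfals, the acid-labile subunit that joins IGF and IGFBP3 or IGFBP5 in the large circulating complex, had 14, 16, 15 and 21 normalized read counts in WT libraries, against 10, 4, 7 and 2 in those of Mettl3 KO hearts. All Mettl3 KO libraries were lower than the WT libraries, and the lowest lay under the limit of 3 reads. Its fitted change was -1.52 ± 0.35 (SE) on the log2 scale (limma adjusted p = 0.00844). The few Igfals counts in heart tissue thus fell, while Igfbp5 rose and Igfbp3 rose with a call lost in 13 of 19 other fits. The circulating complex was not measured. The protease genes Pappa (30.8 ± 8.26 and 44.5 ± 5.20 normalized read counts, limma adjusted p = 0.0700) and Pappa2 (2.5 ± 3.70 and 6.5 ± 2.65, limma adjusted p = 0.0876) were not called. Igfbp1, Igfbp2, Insrr and Adam28 were not analysed here.

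Of the 40 genes of receptor signalling, 6 rose and 2 fell, and their median log2 fold change was -0.04. Irs1, the adaptor that receives the signal from IGF1R and the insulin receptor, had 600, 682, 629 and 608 normalized read counts in WT libraries, against 861, 854, 830 and 766 in those of Mettl3 KO hearts. The groups were well apart, and the difference was 0.39 ± 0.05 (SE) on the log2 scale (limma adjusted p = 2.5e-05). Other members that rose act on opposite sides of the pathway. Sos1, an activator of RAS (344 ± 19.3 to 425 ± 38.2 normalized read counts, limma adjusted p = 0.00404), and Hras itself (116 ± 3.30 to 148 ± 14.9, limma adjusted p = 0.0157) relay the signal. Tsc1, which holds back mTOR (409 ± 5.44 to 487 ± 16.3, limma adjusted p = 0.00255), restrains it. Foxo3, a transcription factor that AKT keeps out of the nucleus, was called with overlapping groups (718 ± 74.0 to 828 ± 65.6, limma adjusted p = 0.0470).

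Among the genes of this list that fell was Tsc2, which encodes the partner of TSC1. Tsc2 had 612, 625, 607 and 590 normalized read counts in WT libraries, against 549, 503, 545 and 491 in those of Mettl3 KO hearts, a difference of -0.22 ± 0.05 (SE) on the log2 scale (limma adjusted p = 0.00680). Tsc1 and Tsc2 thus moved in opposite directions without overlap in either. The call of Foxo3 was kept in 9 of 19 other fits. It was lost without WT replicate 1, 2 or 4 or Mettl3 KO replicate 1, 3 or 4 (limma adjusted p up to 0.196), and the call of Hras was lost without Mettl3 KO replicate 3 (limma adjusted p = 0.0823).

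In the growth hormone axis, which drives Igf1 in liver, 1 of 7 genes was called (14.3%, beside 7.91% of all genes tested). Stat5a, a transcription factor downstream of the growth hormone receptor, rose from 98.5 ± 3.70 to 121 ± 6.24 normalized read counts (log2 fold change 0.29, limma adjusted p = 0.0423), a call kept in 7 of 19 other fits and lost without any one of the WT replicates or without Mettl3 KO replicate 2, 3 or 4 (limma adjusted p up to 0.135). The receptor gene Ghr had 1089 ± 28.9 in WT and 1064 ± 27.3 in Mettl3 KO hearts and was not called (limma adjusted p = 0.717). None of 7 genes of mannose 6-phosphate sorting, the process that IGF2R serves, was called by limma, with 2 at an unadjusted p under 0.05. The same held for 2 noncoding neighbours of IGF genes, with 1 at an unadjusted p under 0.05, and for Igf2bp2, an RNA-binding protein named after its binding to Igf2 mRNA (49.3 ± 5.91 and 43.5 ± 5.80, limma adjusted p = 0.557).

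**Figure D2:**
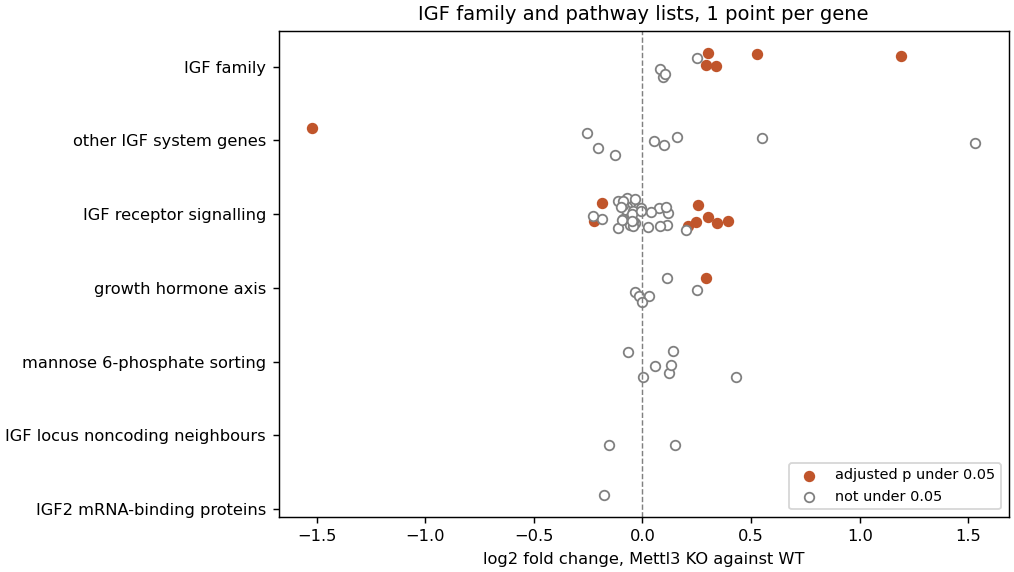
Log2 fold change, Mettl3 KO against WT, of each IGF family member and each tested gene of the 6 pathway lists, with 1 point per gene and vertical scatter for legibility only. Filled points have a limma adjusted p under 0.05: they are 5 points to the right of 0 in the family, but lie on both sides of 0 in receptor signalling (6 higher, 2 lower).

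Markers of the cell types of the heart were set beside these values. Counts of called markers are to be read beside the 7.91% of all genes tested that were called. Fibroblasts are a known source of IGF1 and of several binding proteins in the heart. Of 8 fibroblast markers 7 rose, namely Col1a1, Col1a2, Col3a1, Dcn, Lum, Pdgfra and Dpt, with a median log2 fold change of 0.39 for the list. Their summed normalized read counts were 3883, 3493, 3780 and 3623 in WT libraries, against 4987, 4398, 5060 and 4842 in those of Mettl3 KO hearts. The sums did not overlap, and the second replicate was the lowest of each group, as it was for Igfbp4 and Igfbp5. Tcf21, the remaining marker, had 44.8 and 54.0 on average (limma adjusted p = 0.286).

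Endothelial markers went the other way. Cdh5, Kdr, Tie1 and Flt1 fell and the other 4 markers of that list were not called, with sums of 5172 to 5361 in WT and 4466 to 4867 in Mettl3 KO libraries. Cardiomyocyte markers summed to 22700 to 24029 and 21192 to 23897, and 1 of 8, Ryr2, fell. In each of the smooth muscle and pericyte list (2878 to 3106 in WT and 2724 to 2998 in Mettl3 KO libraries) and the macrophage list (1295 to 1582 and 1309 to 1537) 1 of 8 markers fell and none rose. Atrial markers summed to 570 to 629 in WT and 471 to 1106 in Mettl3 KO libraries, with 3 of 4, Myl7, Sln and Bmp10, called as higher.

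Markers of the mesothelium, the outer lining of the heart, were low but mostly higher in Mettl3 KO hearts. The whole list summed to 69 to 110 normalized read counts in WT and 84 to 139 in Mettl3 KO libraries, and its median log2 fold change was 1.15. Of 5 markers 1 was called, Upk3b (log2 fold change 1.57, limma adjusted p = 0.0140), and 3 had an unadjusted p under 0.05, among them Msln (1.19, limma adjusted p = 0.0620) and Upk1b (1.15, limma adjusted p = 0.205). Wt1, which endothelial cells can also express, made up most of the sum in WT hearts, with a mean of 60.0. In Mettl3 KO hearts its mean of 52.0 was below the mean of 59.0 for the other 4 markers together. The other 4 markers, a selection made after the values were seen, summed to 34, 20, 13 and 38 in WT libraries, against 41, 47, 71 and 77 in those of Mettl3 KO hearts. These sums did not overlap, but they leave out the marker whose mean was lower in Mettl3 KO hearts, whereas the sums of the whole list overlapped, with means of 86.3 and 111. Within the Mettl3 KO group the order differed, since the library highest in Igfbp6 (78) was the lowest in these 4 markers (41). The part of mesothelial cells in the Igfbp6 values was not tested.

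**Figure D3:**
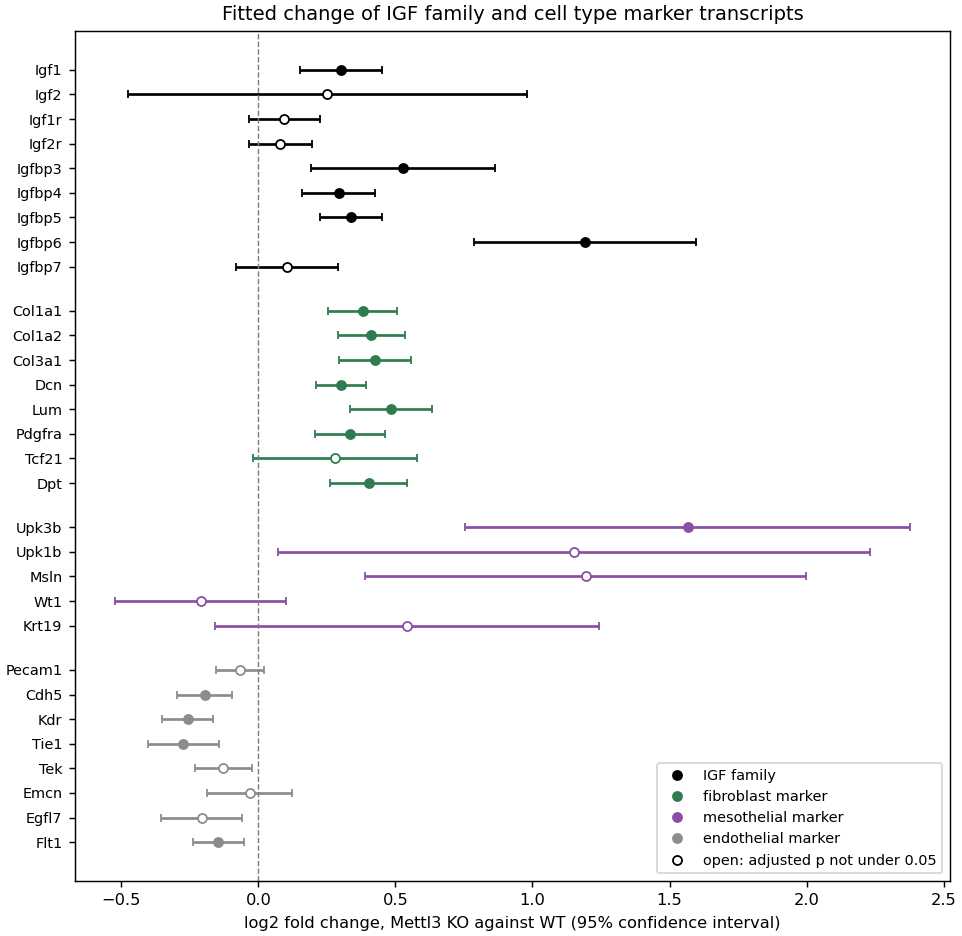
Log2 fold change with 95% confidence interval (horizontal axis), Mettl3 KO against WT, of the IGF family and of the fibroblast, mesothelial and endothelial markers. Filled points have a limma adjusted p under 0.05. Igf1, Igfbp4 and Igfbp5 (0.29 to 0.34) lie in the range of the fibroblast markers (0.28 to 0.48), and Igfbp3 (0.53) and Igfbp6 (1.19) lie to the right of all 8 of them, Igfbp3 with an interval that overlaps theirs.

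The members were then expressed per 1000 normalized read counts of the summed fibroblast markers, a description chosen after the values were seen. On this scale Igf1 had 71.5 ± 6.14 in WT and 67.5 ± 3.77 in Mettl3 KO hearts (SD, n = 4 each), with overlap. Igfbp4 (91.1 ± 2.16 and 85.7 ± 4.50), Igfbp5 (191 ± 5.43 and 185 ± 2.84) and Igfbp3 (24.4 ± 5.17 and 27.6 ± 7.77) overlapped as well. For Igf1, Igfbp4 and Igfbp5 the mean of the Mettl3 KO hearts was thus slightly below that of the WT hearts. Igfbp6 alone of the called members stayed apart, at 7.73, 8.30, 7.41 and 4.42 in WT libraries, against 15.6, 11.1, 12.1 and 10.3 in those of Mettl3 KO hearts, a ratio of 1.77. The receptors were lower in Mettl3 KO hearts on this scale without overlap, at ratios of 0.821 for Igf1r and 0.812 for Igf2r. Whether the markers' rise has a part in the members' values was not tested.

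**Figure D4:**
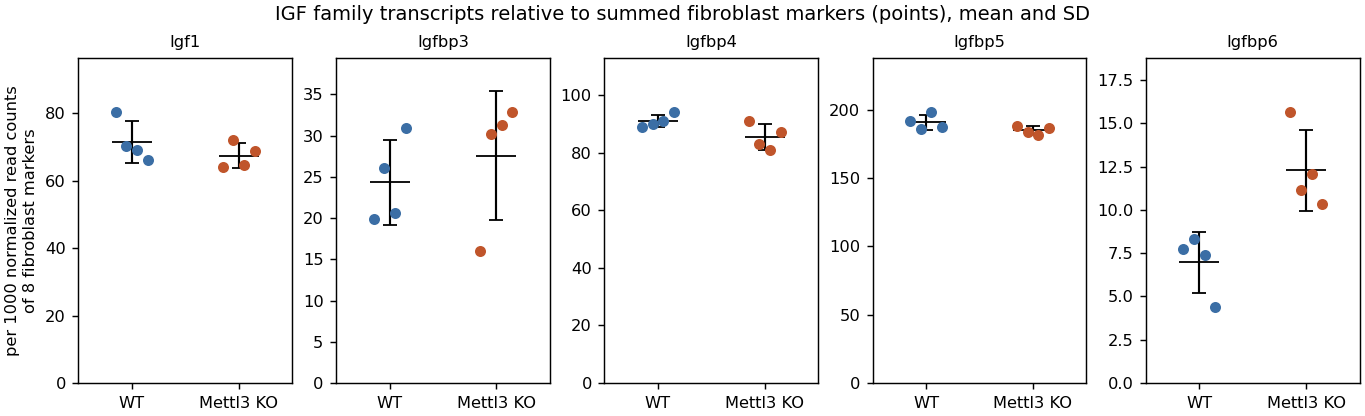
The 5 called IGF family transcripts per 1000 normalized read counts of the 8 summed fibroblast markers (vertical axes, starting at 0), with 1 point per heart library and a bar for the mean ± SD. WT and Mettl3 KO points overlap for Igf1, Igfbp3, Igfbp4 and Igfbp5 and are apart for Igfbp6 (7.0 in WT and 12.3 in Mettl3 KO hearts on average).

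Genes with the most similar pattern were sought for each called member among 12027 genes with a mean of at least 20, by Pearson's r of log2 values over the 8 libraries. These r are descriptions, since the libraries share the difference between the genotypes and the nearest of many genes is always close. Igfbp5 was most like Cacnb1 (r = 0.997), Mmp2 (0.994) and Antxr1 (0.990), and Igfbp4 was most like Apoe (0.983), Mmp2 (0.979) and Ccdc127 (0.978). Mmp2, which encodes a matrix metalloproteinase, was the only gene shared between these lists of 3. Igf1 was most like Podn (0.975), Itih5 (0.974) and Abraxas2 (0.967). Igfbp3 was most like Hmcn1 (0.972), Pcdh9 (0.972) and Gm50419 (0.970), and Igfbp6 was most like Ngrn (0.985), Traf3 (0.981) and Abcb10 (0.979).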

How the data were processed

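Strand-specific single-end libraries had been made from total RNA of mouse hearts. The methods state that the authors trimmed reads (Trimmomatic 0.39), aligned them to mm39 (STAR 2.7.11a), removed duplicates (Picard 3.1.1) and multi-mapping reads, counted exonic reads by strand without those over several genes (featureCounts 2.0.4) and normalized with DESeq2. Dropping duplicates and shared reads lowers short, abundant or overlapping genes. The deposited unit is a score, since values were normalized and rounded to whole numbers, so that tools for raw counts were not used. Read numbers were recovered from gaps between low values, with a method tested on simulated data.

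The fit covered the 20313 genes whose mean was at least 1, so that 2732 were left out. In R 4.3.3, limma 3.58.1 was run on log2(value + 1) with genotype as its single term and a trend of variance on mean, two-sided, with Benjamini-Hochberg adjustment over all genes tested. A fold change on this scale understates low genes. No pair of libraries matched within sampling noise (chi-square per degree of freedom 1.11 to 1.99 within a genotype, 2.29 to 3.32 between genotypes). The members and lists were chosen with earlier results of these data known. Named were all members, Mettl3, Esr1, called genes of each pathway list (the 8 with the largest change if more), markers that state a list's range, and the 3 genes most like each called member. Other genes were named after their values were seen. Of the called pathway genes, 2 are not reported here by name. Alternatives were pseudocounts, filters, scalings, limma voom, a fit without the trend, a robust prior, the replicate number as a block and each library left out. Gene positions are those of the table (mm39). Exon lengths and transcripts came from GENCODE M21 and promoters from RefSeq, both on GRCm38.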

Additional observations from a re-analysis of the deposited data

Results flagged for a closer look

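In 47 groups of 4 libraries, the gap between the most distant library and its nearest neighbour was set against the range of the group, and 2 groups exceeded the 95% limit of Dixon's test, where chance gives about 1 in 20, or 2.35. Igfbp6 in WT hearts had 16 normalized read counts in WT replicate 4 against 28 to 30 in the other WT libraries, a gap of 0.857 of the range. Without this library the log2 fold change of Igfbp6 was 0.99 (limma adjusted p = 0.0017). Igfbp4 in WT hearts had 315 in WT replicate 2 against 341 to 346, a gap of 0.839 of the range. Without it the log2 fold change of Igfbp4 was 0.26 (limma adjusted p = 0.0288). Both transcripts thus remained called.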

How the results depend on the processing

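Results were recomputed in 18 planned ways and 1 added after seeing the data, which left out WT replicate 3 and Mettl3 KO replicate 1, the libraries lowest in Myl7 and Bmp10. No result changed direction. Calls depended most on the mean-variance trend of limma. Without it 0 of 9 members were called (4 at an unadjusted p under 0.05), as were 0 of 66 pathway genes (12) and 321 of all genes (3590). Leaving out each library in turn gave 3 to 5 called members, with 3 without WT replicate 2 (Igf1 and Igfbp3 lost), 7 to 9 pathway genes and 1019 to 1596 genes in all, the lowest without Mettl3 KO replicate 3. Igfbp4, Igfbp5 and Igfbp6 were called in 18 of 19 alternatives, Igf1 in 15 and Igfbp3 in 6, with limma adjusted p of 0.00027 to 0.318 for Igfbp3. Without WT replicate 3 and Mettl3 KO replicate 1, 4 members were called and Igf1 was not (limma adjusted p = 0.0545). With the replicate block 5 members, 8 pathway genes and 1346 genes were called. Libraries of the same number did not pair, as their deviations correlated at 0.0522, 0.0421, -0.0414 and 0.0878. Igf2 has no value at a mean minimum of 10, and its depth allowed no change under its interval to be seen.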
